A study of Danio rerio with 2 samples.

Results

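Transcripts of DNA repair genes were compared between zebrafish embryos injected with Dcp2-DN and mock-injected embryos. Both groups were whole embryos of the AB strain taken at 6 hpf (hours post fertilization), when gastrulation begins. Dcp2 is the decapping enzyme that removes the cap of an mRNA so that the body can be degraded from its 5′ end, and Dcp2-DN is a dominant-negative form. The labels give neither the dose nor the form of the injected material, nor what the mock injection contained. RNA came from pools of 40 to 50 embryos and was depleted of ribosomal RNA before stranded libraries were made. The design text names 3 replicates, but the series lists 1 sample per group. The comparison asks which transcripts differ in level when decapping is inhibited.

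The repair genes were taken by symbol, from stems such as rad, xrcc, fanc, msh, ercc, parp, chek and neil, with the cohesin gene rad21 left out. This gave 107 of the 32571 rows of the table, carrying 101 distinct symbols. The authors' deposited table holds 1 value per gene and group in FPKM (fragments per kilobase, a level corrected for transcript length and library size), so no value below has an SD or an n. A difference has no check other than the authors' own test, and the number of libraries behind that test is not stated. A gene is called higher or lower here where the authors' deposited table marked it significant, which meant a q-value (a p-value adjusted over all tested genes) under 0.05. The table gave a test for 99 of the repair rows. The 8 rows without a test (apex2, msh3, MSH4, PARP6 (1 of 2), PARP8, PARP9, parp6b and 1 of 2 models of xrcc5) were low, with means over both groups between 0.157 and 1.15 FPKM.

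Cells answer different kinds of DNA damage with different machineries. Base excision repair removes single damaged bases, nucleotide excision repair cuts out bulky lesions, and mismatch repair corrects copying errors. Homologous recombination and end joining rejoin broken chromosomes, the Fanconi anaemia pathway handles crosslinks between the strands, and translesion polymerases copy past lesions that remain. The checkpoint kinases ATM, ATR, CHK1 and CHK2 hold the cell cycle while repair proceeds. In the fish embryo the egg supplies mRNAs for this machinery, and the first cleavages run fast and with little checkpoint control, which strengthens around the onset of zygotic transcription.

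Repair genes as a group were called no more often than genes in general. In Dcp2-DN embryos 20 of the 99 tested repair genes were higher (20.2%), beside 20.6% of all 14810 genes tested in the authors' deposited table. A further 3 were lower (3.03%), beside 4.35% of all tested genes, and 76 were not called. Both shares lay near the background, so the results concern individual genes and not the group. With 0.1 FPKM added to both values, the log2 ratio (Dcp2-DN over mock) had a median of 0.13 over the 100 repair rows whose mean reached 1 FPKM, and of 0.12 over all 15457 such rows. Adding 0.1 FPKM understates the change of low genes. Of those 100 repair rows, 65 had the higher value in Dcp2-DN embryos (65.0%, against 62.3% of all such rows).

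The 20 genes called higher were spread over most branches of repair, whereas the 3 called lower, parp1, lig3 and ercc6l, were among the more abundant ones. The log2 ratios of these 3 depended on the reference. Relative to ribosomal protein genes, whose median log2 ratio was -0.22, they were -0.11, -0.061 and -0.040. Relative to the median of all rows, 0.12, they were -0.45, -0.40 and -0.38 in the same order. The genes called higher shifted as well. For chek2, with the smallest fold of the 20, the log2 ratio was 0.34 as deposited and 0.22 relative to all rows. Relative to the ribosomal protein genes it was 0.56. No called repair gene changed sign under either reference. The median fold of the 20 was 1.54, and only rad1 and fancf reached 2-fold. The mean over both groups had a median of 9.38 FPKM among the genes called higher and 49.1 FPKM among those called lower. Summed over all 107 rows, repair transcripts came to 1601 FPKM in Dcp2-DN embryos and 1513 FPKM in mock embryos, a ratio of 1.06. Over all rows of the table that ratio was 0.943, and over 110 further repair-pathway rows, described below, it was 0.960. Such sums weigh abundant rows most: the highest mean was 84.0 FPKM among repair rows and 24692 FPKM among all rows. These ratios are therefore no result about the group.

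**Figure D1:**
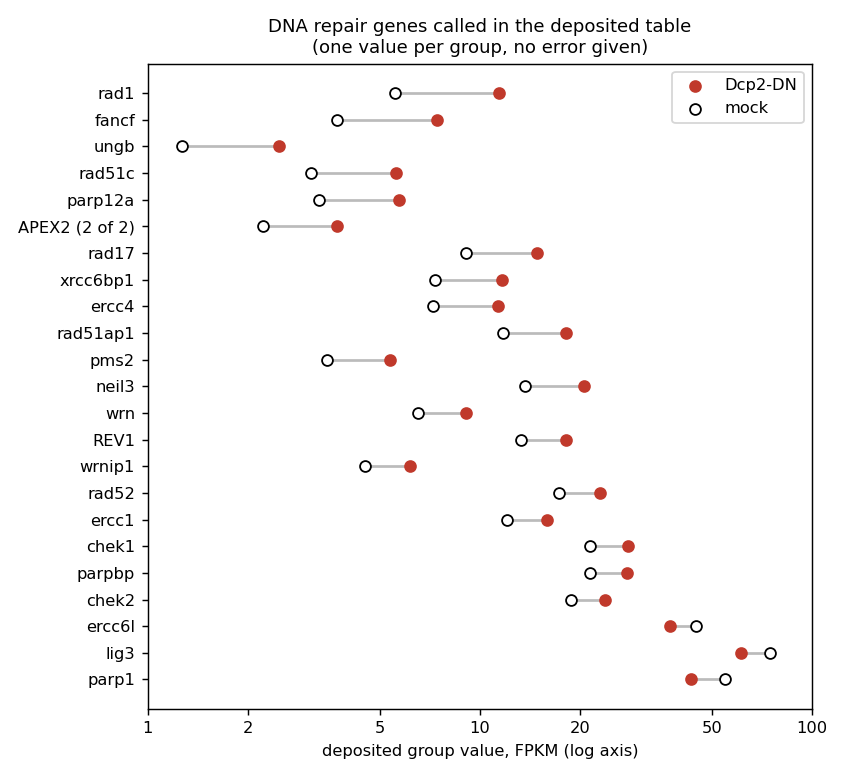
Deposited FPKM values (log axis) of the 23 repair genes called in the authors' deposited table, with filled points for Dcp2-DN and open points for mock embryos, 1 value per group and no error. For 20 genes the filled point lies to the right of the open one, widest for rad1 (11.4 against 5.55 FPKM), and for ercc6l, lig3 and parp1 it lies to the left.

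Gastrula markers were present in both groups but not at equal levels. All 9 found, among them gsc, chd and sox32, lay between 65.7 and 688 FPKM in Dcp2-DN embryos and between 30.1 and 917 FPKM in mock embryos. Of these markers 6 were called in the authors' deposited table: mxtx2 of the yolk syncytial layer (2.62-fold), her5 (2.18-fold), bmp2b (1.31-fold) and gsc (1.22-fold) were higher in Dcp2-DN embryos, and chd (ratio 0.79) and krt4 of the enveloping layer (ratio 0.75) were lower. Whether such differences in stage or cell makeup bear on the repair genes was not tested. The 11 rows of later tissue markers, such as globin, heart and liver genes, did not exceed 0.987 FPKM in Dcp2-DN embryos and 2.11 FPKM in mock embryos. Of 2 gene models named dcp2, ENSDARG00000089419 stood at 212 FPKM in Dcp2-DN and 0.0398 FPKM in mock embryos, and ENSDARG00000039016 at 16.7 and 13.9 FPKM in the same order. Neither was called in the authors' deposited table (q = 0.303 and 0.109). In whole embryos fewer cells that carry a transcript and less of it per cell cannot be told apart.

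Checkpoint signalling had 4 of 10 tested genes higher and 0 lower, beside 20.6% higher and 4.35% lower among all tested genes. With 10 genes this count is a description and no result about the group. rad1, a subunit of the ring-shaped RAD9-RAD1-HUS1 clamp that marks damaged DNA (chromosome 15, 23134044 to 23138148 on Zv9), had 11.4 FPKM in Dcp2-DN and 5.55 FPKM in mock embryos. This 2.06-fold rise was the largest ratio among the called repair genes, with q = 0.000593 in the authors' deposited table. rad17, which loads the clamp onto DNA, had 14.9 FPKM in Dcp2-DN and 9.07 FPKM in mock embryos, 1.64-fold higher at the same q in the authors' deposited table. The clamp subunit rad9a was not called, at 14.8 and 12.3 FPKM in Dcp2-DN and mock embryos (q = 0.234 in the authors' deposited table), and neither was rad9b, at 1.92 and 2.25 FPKM.

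The effector kinases rose by less. chek1, the kinase that ATR activates, had 27.9 FPKM in Dcp2-DN and 21.5 FPKM in mock embryos (1.29-fold, q = 0.0283 in the authors' deposited table). chek2, the kinase that ATM activates, had 23.8 and 18.8 FPKM in the same order (1.27-fold, q = 0.0407 in the authors' deposited table), at a locus shared with 1 other gene. The upstream kinases differed in the direction of their values, and none was called. atr had 3.79 FPKM in Dcp2-DN and 2.49 FPKM in mock embryos, a ratio of 1.52 with p = 0.0266 but q = 0.0886 in the authors' deposited table. Its partner atrip stood at 20.2 FPKM in Dcp2-DN and 17.0 FPKM in mock embryos. Outside the symbol rule, CLSPN, topbp1, TIMELESS and tipin had ratios of 1.13, 0.953, 0.936 and 1.22 without a call. All but CLSPN lay at shared loci. The checkpoint factor mcph1, described below, was called higher. Of the 2 models named atm, ENSDARG00000063465 had 4.81 and 5.88 FPKM and ENSDARG00000002385 had 2.91 and 3.18 FPKM in Dcp2-DN and mock embryos. These models lie next to each other on chromosome 15, and how reads were divided between them is not given in the sources used here.

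Homologous recombination genes taken by the symbol rule were mostly not called, with a median log2 ratio of 0.20. Of 18 tested, 4 were higher (22.2%) and 0 lower, beside 20.6% and 4.35% of all tested genes. rad51ap1, whose product stimulates the pairing of DNA strands, rose to 18.1 FPKM in Dcp2-DN embryos, against 11.8 FPKM in mock embryos (1.54-fold, q = 0.000593 in the authors' deposited table). rad52, a DNA annealing factor, had 23.0 FPKM in Dcp2-DN and 17.3 FPKM in mock embryos (1.33-fold, q = 0.0179 in the authors' deposited table). parpbp, whose human counterpart PARI restrains recombination, had 27.9 and 21.5 FPKM in the same order (1.29-fold, q = 0.0252 in the authors' deposited table), at a locus shared with 2 other genes. Outside the rule, genes called higher included bard1 (1.37-fold), sfr1 (1.56-fold, at a shared locus) and swsap1. The swsap1 values were low, at 2.35 FPKM in Dcp2-DN and 0.841 FPKM in mock embryos (2.79-fold). Some others of this branch outside the rule, among them brip1, mnd1, psmc3ip and eme1, were not called.

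The products of rad51b, rad51c, rad51d, XRCC2 and xrcc3 form complexes that assist strand exchange. All 5 genes had the higher value in Dcp2-DN embryos, as had 62.3% of all rows whose mean reached 1 FPKM. These 5 were grouped after seeing values, and among them only rad51c was called. It had 5.60 FPKM in Dcp2-DN and 3.10 FPKM in mock embryos, 1.81-fold higher with q = 0.0229 in the authors' deposited table, at a locus shared with 1 other gene. XRCC2, with a ratio of 1.82 (1.86 and 1.02 FPKM in Dcp2-DN and mock embryos), had q = 0.137 in the authors' deposited table. xrcc3 (7.20 and 5.0 FPKM), rad51d (5.90 and 4.49 FPKM) and rad51b (11.2 and 8.73 FPKM) had ratios of 1.44, 1.31 and 1.28, without a call.

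The genes that bind or resect a break, and those of the BRCA2 complex, showed small differences and no call. mre11a, rad50 and nbn encode the complex that binds broken ends. Their values were 10.7, 14.4 and 15.8 FPKM in Dcp2-DN embryos, against 9.96, 16.1 and 17.3 FPKM in mock embryos. The resecting nuclease exo1 had 35.9 FPKM in Dcp2-DN and 35.6 FPKM in mock embryos, and brca2, a mediator of strand exchange, 28.2 and 27.5 FPKM. palb2, which binds BRCA2, stood at 13.6 and 11.8 FPKM, and the translocase gene rad54l at 11.9 and 10.3 FPKM in the same order. rad54b and rad54l2 had ratios of 1.14 and 0.946, also without a call.

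Among the Fanconi anaemia genes 1 of 12 was called higher (8.33%) and 0 lower, beside 20.6% and 4.35% of all tested genes. The median log2 ratio of the group, 0.36, was nevertheless the highest of the roles. The means over both groups had a median of 3.94 FPKM in this role. Below 5 FPKM the median log2 ratio was 0.40 over tested repair genes and 0.20 over all tested genes. With 12 genes the median of 0.36 is a description and no result about the group. fancf, an adaptor of the core complex that ubiquitinates FANCD2 (chromosome 25, 36355971 to 36357467 on Zv9), had 7.45 FPKM in Dcp2-DN and 3.71 FPKM in mock embryos. It was 2.01-fold higher, with q = 0.000593 in the authors' deposited table. fancd2, the substrate of that complex, narrowly missed the call at q = 0.0541 in the authors' deposited table. It had 5.47 FPKM in Dcp2-DN and 4.04 FPKM in mock embryos (ratio 1.36), at a shared locus. Its partner fanci had 11.1 and 10.2 FPKM.

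Of the remaining core genes, fancl, the ubiquitin ligase subunit, had 4.36 FPKM in Dcp2-DN and 2.68 FPKM in mock embryos, a ratio of 1.63 with q = 0.192 in the authors' deposited table. fance, fancb, fancc and fancg had ratios between 1.12 and 1.37 without a call. FANCA went the other way, at 2.92 FPKM in Dcp2-DN and 3.77 FPKM in mock embryos (p = 0.0227 and q = 0.0791 in the authors' deposited table). These genes were low: the group's median was 4.8 FPKM in Dcp2-DN and 3.74 FPKM in mock embryos, below the 10.3 and 8.80 FPKM of all repair rows in the same order.

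**Figure D2:**
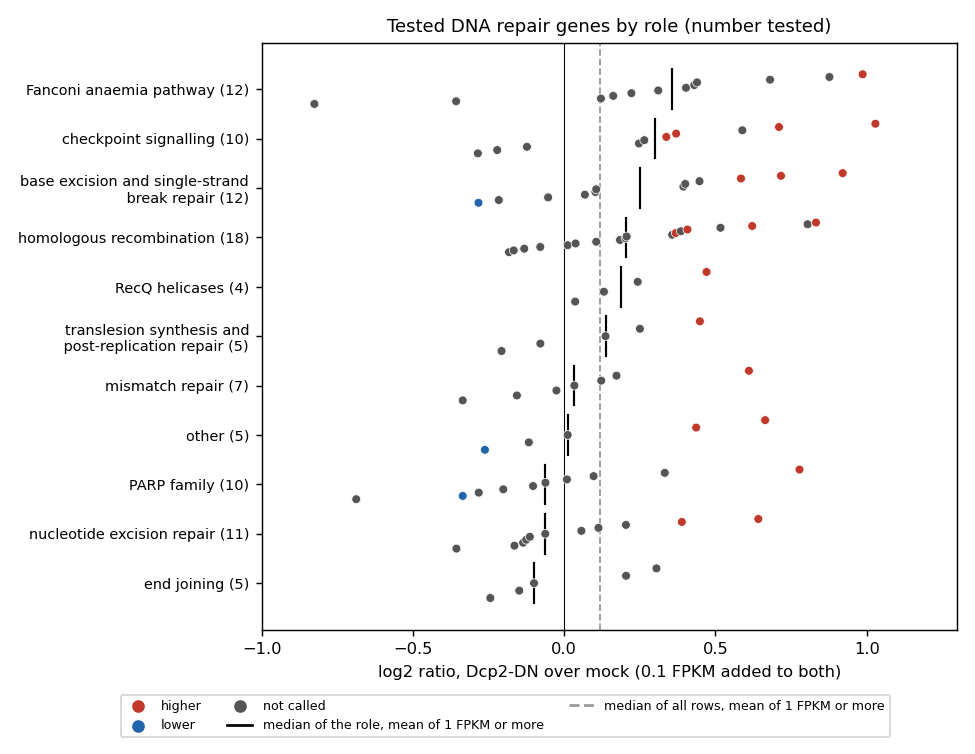
Log2 ratio of Dcp2-DN over mock (0.1 FPKM added to both) for the 99 tested repair genes, 1 point per gene, by role and coloured by the call in the authors' deposited table. Black bars mark the median of each role, which runs from 0.36 for the Fanconi anaemia genes to -0.10 for end joining, and the dashed line marks the median of all rows at 0.12.

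Nucleotide excision repair had 2 of 11 tested genes higher (18.2%) and 0 lower, beside 20.6% and 4.35% of all tested genes. The pair that rose encodes a single enzyme. ercc4 (XPF) and ercc1 form the nuclease that cuts on the 5′ side of a lesion. ercc4 had 11.3 FPKM in Dcp2-DN and 7.21 FPKM in mock embryos (1.57-fold, q = 0.000593 in the authors' deposited table). ercc1 had 15.9 and 12.1 FPKM in the same order (1.31-fold, q = 0.0415 in the authors' deposited table). The nuclease for the opposite side, ercc5 (XPG), was not called, at 6.80 FPKM in Dcp2-DN and 7.43 FPKM in mock embryos.

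None of the other 9 excision repair genes taken by the symbol rule was called, although some genes of these steps outside the rule were. Those called higher in the authors' deposited table included the damage sensor ddb2, at 17.0 FPKM in Dcp2-DN and 11.0 FPKM in mock embryos (1.54-fold, q = 0.000593). The TFIIH genes gtf2h1, mnat1 and gtf2h5 were also called higher, at 1.44-, 1.36- and 1.24-fold. Other rows of these steps outside the rule were not called. Those of ddb1, also of damage recognition, had ratios of 0.843 and 0.852. The TFIIH genes gtf2h2, gtf2h3, gtf2h4 and cdk7 had ratios of 1.06, 1.24, 1.04 and 1.16. Another gtf2h1 row was not called either. The helicase genes of TFIIH, ercc2 and ercc3, had 43.4 and 12.2 FPKM in Dcp2-DN embryos, against 41.7 and 13.4 FPKM in mock embryos. The damage sensor xpc had 16.6 FPKM in Dcp2-DN and 17.3 FPKM in mock embryos, and the verification factor xpa 8.04 and 6.97 FPKM. The XPC partner rad23b was the most abundant gene of this branch, at 46.5 and 52.1 FPKM in the same order, and its relative rad23aa had a ratio of 0.779 (7.11 and 9.13 FPKM), with q = 0.085 in the authors' deposited table. The genes of transcription-coupled repair, ercc6 and ercc8, had ratios of 0.924 and 1.08.

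Mismatch repair had 1 of 7 tested genes higher (14.3%) and 0 lower, beside 20.6% and 4.35% of all tested genes. pms2, which encodes a nuclease subunit that nicks the strand with the error, had 5.35 FPKM in Dcp2-DN and 3.47 FPKM in mock embryos (1.54-fold, q = 0.0048 in the authors' deposited table). The mismatch sensor gene msh6 had 22.8 FPKM in Dcp2-DN and 20.9 FPKM in mock embryos and was not called. pms1 and mlh3 had ratios of 0.982 and 1.13, and the tested row MSH3 (2 of 2) one of 1.02.

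Base excision and single-strand break repair contained the 3 most abundant repair transcripts (apex1, polb and lig3) and had calls in both directions. Of its 12 tested genes 3 were higher (25%) and 1 lower (8.33%), beside 20.6% and 4.35% of all tested genes. The genes that rose encode glycosylases and an endonuclease homologue, but most genes of this opening step were not called. Of 9 tested glycosylase rows, with SMUG1 and mpg from outside the symbol rule, 2 were called higher and 0 lower. The further glycosylase gene tdg, also outside the rule, was called lower (24.6 FPKM in Dcp2-DN and 30.9 FPKM in mock embryos). neil3, a glycosylase for oxidised bases, had 20.6 FPKM in Dcp2-DN and 13.7 FPKM in mock embryos (1.5-fold, q = 0.000593 in the authors' deposited table). ungb, a uracil glycosylase gene, had 2.49 and 1.27 FPKM in the same order (1.96-fold, q = 0.0345 in the authors' deposited table), at a locus shared with 1 other gene. APEX2 (2 of 2), a homologue of the abasic-site endonucleases, had 3.72 and 2.22 FPKM (1.67-fold, q = 0.0164 in the authors' deposited table).

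The second uracil glycosylase gene, unga, was far more abundant than ungb and was not called, at 54.4 FPKM in Dcp2-DN and 39.9 FPKM in mock embryos (ratio 1.36, p = 0.0313 and q = 0.0994 in the authors' deposited table). The glycosylase genes mutyh and nthl1 each had a ratio of 1.33, neil1 one of 1.07, and ogg1, the 8-oxoguanine glycosylase, one of 0.859, all without a call. apex1, the main abasic-site endonuclease, had the highest mean of all repair rows, at 82.5 FPKM in Dcp2-DN and 85.6 FPKM in mock embryos. The gap-filling polymerase gene polb had 74.6 and 71.2 FPKM, and the scaffold gene xrcc1 38.1 and 35.4 FPKM in the same order.

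Among genes taken by the symbol rule, the one that fell in this branch was lig3. It encodes the ligase that XRCC1 carries to breaks (chromosome 5, 62528092 to 62548484 on Zv9). It had 61.4 FPKM in Dcp2-DN and 74.7 FPKM in mock embryos, 1.22-fold lower at q = 0.0246 by the authors' deposited table. parp1, which senses strand breaks and recruits XRCC1, also fell (chromosome 20, 43680200 to 43721542). It had 43.4 FPKM in Dcp2-DN and 54.8 FPKM in mock embryos, 1.26-fold lower at q = 0.00606 by the authors' deposited table, at a locus shared with 1 other gene. Of the partners of lig3, polb and xrcc1 had ratios of 1.05 and 1.08 and no call. Outside the rule, aptx, pnkp and fen1 of this branch had ratios of 0.831, 0.930 and 1.11, also without a call. LIG1, described below, was called lower. Whether the ratios of the uncalled genes differ from those of lig3 and parp1 was not tested.

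Of the 10 tested PARP rows, 1 was called higher (10%) beside the fall of parp1 (10%), against 20.6% and 4.35% of all tested genes. parp12a, a mono-ADP-ribosyltransferase gene with no established role in repair, had 5.71 FPKM in Dcp2-DN and 3.29 FPKM in mock embryos (1.74-fold, q = 0.0369 in the authors' deposited table), at a locus shared with 4 other genes. parp2, which acts beside PARP1 at breaks, had 20.7 FPKM in Dcp2-DN and 20.6 FPKM in mock embryos. parp3, active at double-strand breaks, had 6.40 and 5.06 FPKM (ratio 1.26, q = 0.11 in the authors' deposited table). PARP4, PARP10, PARP14, parp12b and parp16 had ratios between 0.821 and 1.07 without a call, and parp6a, at 0.835 and 1.41 FPKM in Dcp2-DN and mock embryos, had q = 0.585 in the authors' deposited table.

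Of the end joining genes taken by the symbol rule, 0 of 5 tested were called, and 0 had an unadjusted p under 0.05 in the authors' deposited table. Among all tested genes 20.6% were called higher and 4.35% lower, and 27.5% and 8.22% at the unadjusted threshold. xrcc4, the partner of ligase IV, had 10.3 FPKM in Dcp2-DN and 8.32 FPKM in mock embryos, and lig4 had 13.2 and 11.5 FPKM. The Ku subunit genes were low in both groups: xrcc6 (Ku70) had 1.75 and 2.1 FPKM, and the tested model of xrcc5 (Ku80), ENSDARG00000068862, had 3.43 and 3.81 FPKM in Dcp2-DN and mock embryos. POLQ, the polymerase of alternative end joining, stood at 17.3 and 18.5 FPKM and was thus more abundant than either tested Ku row in each group. Some end joining genes outside the symbol rule were called, in both directions, in the authors' deposited table. dclre1c and polm, also outside the rule, had ratios of 0.919 and 1.34 without a call. nhej1, which encodes the ligase IV cofactor XLF, had 31.8 FPKM in Dcp2-DN and 21.1 FPKM in mock embryos (1.51-fold, q = 0.000593 in the authors' deposited table). The gap-filling polymerase gene poll, at a shared locus, had 31.8 and 22.6 FPKM (1.41-fold, q = 0.00273 in the authors' deposited table), whereas PRKDC was lower.

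Translesion synthesis and post-replication repair had 1 of 5 tested genes higher (20%) and 0 lower, beside 20.6% and 4.35% of all tested genes. REV1, the scaffold that brings translesion polymerases together, had 18.2 FPKM in Dcp2-DN and 13.3 FPKM in mock embryos (1.37-fold, q = 0.0051 in the authors' deposited table). rad18, the ubiquitin ligase that calls these polymerases to a stalled fork, had 45.5 and 38.3 FPKM (ratio 1.19, q = 0.108 in the authors' deposited table). The polymerase genes rev3l, POLH and polk had 15.7, 13.5 and 6.11 FPKM in Dcp2-DN embryos, against 14.2, 14.2 and 7.07 FPKM in mock embryos, without a call.

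Of the RecQ helicases, wrn rose to 9.07 FPKM in Dcp2-DN embryos, against 6.52 FPKM in mock embryos (1.39-fold, q = 0.00311 in the authors' deposited table), at a locus shared with 1 other gene. blm, RECQL5 and recql had ratios of 1.18, 1.10 and 1.03 without a call. blm was the most abundant of them, at 44.6 FPKM in Dcp2-DN and 37.7 FPKM in mock embryos.

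The symbol rule also took 5 genes whose main known role is another or is less settled. Of these 2 were higher (40%) and 1 lower (20%), beside 20.6% and 4.35% of all tested genes. xrcc6bp1, listed as ATP23 in the current name table and encoding a mitochondrial protease, had 11.7 FPKM in Dcp2-DN and 7.33 FPKM in mock embryos (1.59-fold, q = 0.00348 in the authors' deposited table). wrnip1, an ATPase that binds WRN in human cells, had 6.16 and 4.52 FPKM (1.36-fold, q = 0.042 in the authors' deposited table). ercc6l, the mitotic DNA translocase PICH, had 37.4 and 44.9 FPKM in Dcp2-DN and mock embryos, 1.2-fold lower at q = 0.0407 by the authors' deposited table. The protease gene blmh and the helicase-like gene ERCC6L2 had ratios of 0.922 and 1.01. Without these 5 genes and the PARP genes beyond parp1, parp2 and parp3, the counts were 17 higher and 2 lower. With them, 20 of 99 were higher (20.2%) and 3 lower (3.03%), beside 20.6% and 4.35% of all tested genes. Shares for the smaller set were not computed.

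Of all 14810 tested genes, 1589 had an unadjusted p under 0.05 in the authors' deposited table without passing q, 1015 of them higher and 574 lower. Among the 99 tested repair genes this held for 10, with q-values from 0.0541 to 0.137. The higher value stood in Dcp2-DN embryos for 8 of these 10 (atr, fancd2, XRCC2, xrcc3, unga, mutyh, parp3 and rad18) and in mock embryos for FANCA and rad23aa. At this unadjusted threshold 28 repair genes (28.3%) were higher, beside 27.5% of all tested genes, and 5 (5.05%) were lower, beside 8.22%.

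Under stricter rules fewer repair genes were called, and fewer of all genes. At q under 0.01 in the authors' deposited table, 10 repair genes (10.1%) were higher, beside 13.5% of all tested genes, and parp1 alone (1.01%) was lower, beside 1.55%. With a call and at least a 1.5-fold difference, 12 (12.1%) were higher, beside 11.9%, and 0 were lower, beside 0.885%. Among genes whose mean reached 5 FPKM, 15 of 74 (20.3%) were higher, beside 22.8%, and 3 (4.05%) were lower, beside 4.94%. Without the rows that share their locus with another gene, 14 of 72 (19.4%) were higher, beside 22.4%, and 2 (2.78%) were lower, beside 4.67%.

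The 3 falls lay among the abundant repair genes, and in the whole table the share of genes called lower was highest at high levels. In the list of further repair genes the genes called lower had a median mean of 14.5 FPKM, under the 17.8 FPKM of its tested genes. Below 5 FPKM, 5 of 25 repair genes (20%) were higher and 0 lower, beside 15.0% and 2.83% of all tested genes at that level. From 5 to under 10 FPKM, 6 of 24 (25.0%) were higher and 0 lower, beside 25.8% and 2.77%. From 10 to under 20 FPKM, 5 of 25 (20%) were higher and 0 lower, beside 29.3% and 3.11%. Repair genes of 20 to under 50 FPKM held 4 rises (18.2%) and 2 falls (9.09%) in 22 genes, beside 23.8% and 4.52%, and the 3 genes of 50 FPKM and over held 0 rises and 1 fall, beside 12.3% and 9.25%. All 3 falls, parp1, lig3 and ercc6l, therefore belonged to repair genes above 20 FPKM. Across the 99 tested repair genes Spearman's rho between the log2 ratio and the mean was -0.21, and across all 14810 tested rows it was -0.19. Both describe points that share the same pair of group values and say nothing of replicates.

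**Figure D3:**
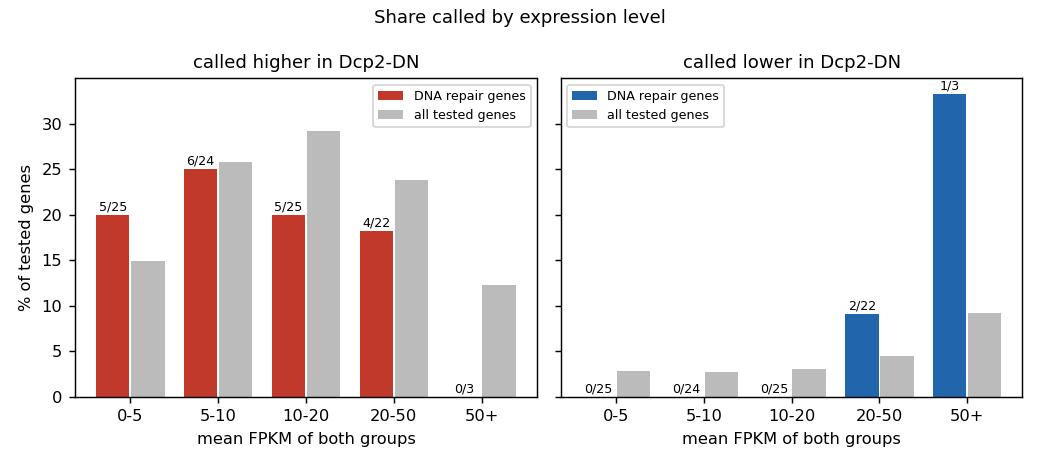
Share of tested genes called higher (left) and lower (right) in Dcp2-DN embryos in the authors' deposited table, by mean FPKM, with repair genes as coloured bars and all tested genes as grey bars. Numbers above the coloured bars are called over tested repair genes: 5 of 25 were higher at 10 to 20 FPKM (20%, against 29.3% of all tested genes), and the 3 falls lie at 20 FPKM or more.

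**Figure D4:**
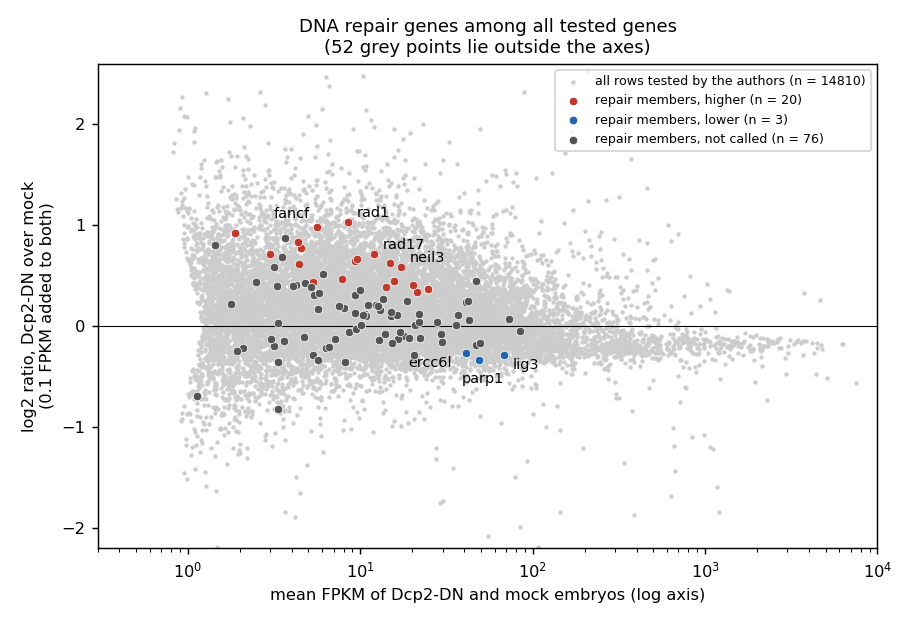
Log2 ratio of Dcp2-DN over mock (0.1 FPKM added to both) against mean FPKM of both groups on a log axis, with all 14810 tested rows in grey and the 99 tested repair genes in colour. The 20 repair genes called higher lie among the grey points at means below 30 FPKM, and parp1, lig3 and ercc6l at means of 49.1, 68.0 and 41.2 FPKM.

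Repair-pathway genes outside the symbol rule gave like counts. A list of 111 further symbols (damage recognition, clamp partners, nuclease scaffolds, ubiquitin signalling and alkylation repair among them) matched 110 rows, of which 101 were tested. By the authors' deposited table, 20 of these (19.8%) were higher and 4 (3.96%) were lower, beside the same 20.6% and 4.35% of all tested genes, with a median log2 ratio of 0.16. The largest rise among the called genes was that of swsap1, a homologous recombination factor with a low mean of 1.59 FPKM. It had 2.35 FPKM in Dcp2-DN and 0.841 FPKM in mock embryos (2.79-fold, q = 0.00857 in the authors' deposited table). The row SLX4 (2 of 2) had a larger ratio, at 6.33 FPKM in Dcp2-DN and 0.259 FPKM in mock embryos, but was not tested. ube2t, the ubiquitin-conjugating enzyme of the Fanconi pathway, had 31.8 and 16.9 FPKM (1.88-fold), and rmi1, a partner of the BLM helicase, 7.61 and 4.20 FPKM (1.81-fold), both with q = 0.000593 in the authors' deposited table.

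The next rises in that list concerned break signalling, the checkpoint and chromosome structure. RNF169, a ubiquitin reader at double-strand breaks, had 46.8 FPKM in Dcp2-DN and 28.1 FPKM in mock embryos (1.66-fold). mcph1, a checkpoint factor at a shared locus, had 47.2 and 29.5 FPKM (1.60-fold). nsmce1, a subunit of the SMC5/6 complex, had 25.5 and 16.0 FPKM (1.60-fold). All 3 had q = 0.000593 in the authors' deposited table. The 4 falls were PRKDC, the DNA-dependent protein kinase (3.53 FPKM in Dcp2-DN and 4.73 FPKM in mock embryos, 1.34-fold lower, q = 0.00235), LIG1, the replicative ligase (18.6 and 24.4 FPKM, 1.31-fold lower, q = 0.00414), the polymerase gene pole (6.67 and 8.39 FPKM, 1.26-fold lower, q = 0.0246) and the thymine glycosylase gene tdg (24.6 and 30.9 FPKM, 1.26-fold lower, q = 0.0215), all by the authors' deposited table. Of the DNA ligase genes, LIG1 and lig3 were thus lower in Dcp2-DN embryos and lig4 was not called, beside 4.35% of all tested genes called lower. So few genes, grouped after seeing values, give a description and no result about ligases. Relative to ribosomal protein genes the log2 ratio of lig3 was -0.061.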

How the data were processed

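Total RNA of pooled whole embryos was sequenced, and grouping followed the sample titles. The group names inside the table read DCP2 and mockB and were taken as Dcp2-DN and mock. The submitters' processing notes name the builds danRer7 and Zv9 with TopHat 1.4.0 and Cuffdiff 2.1.1. The annotation, the scaling between libraries, the strand setting and the number of libraries behind each value are not stated in the sources at hand. The authors deposited FPKM once for each gene in each group, beside their own p-value and q-value, per the file headers, with 5e-05 as the lowest p, shared by 1249 rows. The spread behind these p-values may be technical. Depth is unknown, since the table holds no counts.

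The deposited log2 column held cells spoiled by a spreadsheet, so log2 ratios were recomputed with 0.1 FPKM added to both values. Folds and ratios are of the FPKM values as deposited. Calls are those of the authors' deposited table. No test was run on the list. The members, the roles, the list of further repair genes and the alternatives were chosen with earlier results of these data known. Named were all called members, the most abundant and most changed tested member of each role, a set of textbook members and up to 6 rises and 6 falls of the further list, apart from some members that are not reported here; the remaining names, and the subgroups within a role (clamp, paralogues, nuclease pairs), were chosen after seeing values. Of the 107 gene IDs, 92 were found in the name table and 86 carried the same symbol there. Coordinates are locus spans as the deposited table gives them, on Zv9, with an unstated base (0 or 1) for the starts. Of the repair rows 28, including 7 called ones, share their locus string with another gene, and the counting could split reads between such genes. Counting code was tested on simulated data. Computations used Python 3.11.15, NumPy 2.4.6, pandas 2.3.3 and matplotlib 3.10.9.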

Additional observations from a re-analysis of the deposited data

How the results depend on the processing

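The count of repair genes called higher was 20 (20.2%, beside 20.6% of all tested genes). It was 10 at q under 0.01 (10.1%, beside 13.5%) and 12 with a fold of at least 1.5 (12.1%, beside 11.9%). It stayed within 1.5 times (14 to 28) at an unadjusted p under 0.05, at a mean of at least 5 FPKM, and without shared loci, copies, or members with other roles. For the unadjusted p, the mean filter and unshared loci the shares were 28.3%, 20.3% and 19.4%. Among all tested genes they were 27.5%, 22.8% and 22.4% in the same order. The count called lower was 3 (3.03%, beside 4.35%), and it was 1 at q under 0.01 (1.01%, beside 1.55%). It was 0 with a fold of at least 1.5 (beside 0.885%) and 5 at an unadjusted p under 0.05 (5.05%, beside 8.22%). For the further repair genes, 20 higher became 9 (8.91%, beside 11.9% of all tested genes) with a fold of at least 1.5. The 4 lower became 0 under that rule, beside 0.885% of all tested genes. At q under 0.01, 15 were higher (14.9%, beside 13.5%) and 2 lower (1.98%, beside 1.55%). The median log2 ratio of repair genes, 0.13, was 0.12 with 1 FPKM added, 0.12 without a filter, 0.12 with a mean of at least 5 FPKM, 0.0096 after centring on the median of all rows and 0.35 after centring on 79 ribosomal protein genes, whose own median was -0.22. Relative to the median of all rows 52 of 100 repair genes were higher, beside 50.0% of all rows, a share that this centring fixes. Relative to the ribosomal protein genes 89 of 100 were higher (84.4% of all rows). Centring on the ribosomal protein genes left the 3 falls close to 0: the log2 ratios were -0.11 for parp1 (-0.34 without centring), -0.061 for lig3 (-0.28) and -0.040 for ercc6l (-0.26). Centring on the median of all rows made these falls larger, at -0.45, -0.40 and -0.38 in the same order. It made the rises smaller, for example 0.22 for chek2 (0.34 without centring). No paired analysis was possible because values per replicate were not analysed here, and for the same reason no replicate was left out.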

Other observations

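lig3 and rad51d were neighbours on chromosome 5 of Zv9, with 4842 bases between their locus spans, and had ratios of Dcp2-DN over mock of 0.821 (called lower) and 1.31 (not called). On chromosome 15, ercc2 (ratio 1.04, not called) and rad1 (ratio 2.06, called higher) lay 88137 bases apart.

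The rows FANCM (1 of 3) and FANCM (2 of 3) lay 557 bases apart on a scaffold and had opposite values. The first had 2.36 FPKM in Dcp2-DN and 4.26 FPKM in mock embryos, and the second 4.76 and 2.55 FPKM. A row on another scaffold, fancm, had 1.93 and 1.64 FPKM. None of the 3 was called in the authors' deposited table (q = 0.214, 0.412 and 0.536). Whether these rows are pieces of a single gene was not tested.

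Across the 72 tested repair genes alone at their locus, Spearman's rho between the length of the locus span and the log2 ratio was -0.32, shorter loci having the higher ratios. Over the 11878 tested rows alone at their locus it was 0.01. Among the same 72 repair genes, rho between locus span and mean FPKM was 0.22. These are descriptions across genes, which share the same pair of group values, and were not tested.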
